A study of Mus musculus with 7 samples.

Results

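Transcripts of 10 secreted signalling proteins were followed in tumour-infiltrating CD4 T cells (helper T lymphocytes). The 10 genes were chosen by name from the 15588 genes of the deposited count table. They were the chemokine genes Ccl3, Ccl4, Ccl5 and Xcl1, the cytokine genes Tnf, Il2, Il21, Il10 and Tgfb1, and the growth factor gene Areg. All 10 passed the filter on low counts and were among the 12929 genes tested. The cells had been sorted in a mouse model of hepatocellular carcinoma transplanted into the liver. Sample titles of both days call them tumour-infiltrating. One group was labelled day 0 (2 libraries) and the other day 7 (5 libraries) of the model. Neither group carried a stated genetic change or drug treatment. The sources used here do not give the strain, sex or age of the mice, the tumour line, the sorting gate, any pooling of animals or the tissue sampled at day 0. Libraries are named by day and by the last digit of their column, which cannot be tied to a numbered sample. Since no label says that the libraries came from separate mice, the tests see only how these libraries vary, which may be technical.

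Chemokines are small secreted proteins that draw in cells bearing the matching receptor. CCL3, CCL4 and CCL5 attract T cells and monocytes, and XCL1 acts on XCR1 of cross-presenting dendritic cells. TNF and IL-2 are early products of a stimulated T cell, and IL-21 is typical of helper cells that act on B cells and CD8 T cells. IL-10 and TGF-beta restrain immune responses, and amphiregulin, the product of Areg, drives tissue repair through the EGF receptor. Transcription of several of these genes depends on NFAT, NF-kappaB and AP-1. Many of the messages carry AU-rich elements that shorten their life.

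Levels are in CPM, counts relative to the scaled size of each library, and a mean is followed by its SD (n = 2 at day 0 and n = 5 at day 7). Values per library are given in the order of libraries 2 and 3 at day 0 and of libraries 1, 2, 3, 5 and 6 at day 7. A positive log2 change means a higher level at day 7, and ± is its standard error. None of the 10 genes passed edgeR's quasi-likelihood test at a Benjamini-Hochberg adjusted p below 0.05, when 1.54% of all genes tested did (1.07% higher and 0.472% lower). At an unadjusted p below 0.05, 3 were higher (Ccl3, Ccl4 and Il21) and 1 was lower (Xcl1), against 10.1% of all genes in either direction. In 3 of the 10 genes the 2 days did not overlap (Ccl4 and Il21 higher, Xcl1 lower), as in 15.3% of all genes (7.53% higher and 7.77% lower). DESeq2 called 4 of the 10 (Ccl4, Il21 and Areg higher, Xcl1 lower), where it called 6.62% of all genes, and limma-voom called 0 of the 10, where it called 0.735% of all genes. The median log2 change of all genes tested was 0.04.

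The sorted cells carried the T cell genes Cd3d, Cd3e, Cd3g, Cd247, Lck, Cd5 and Cd4 in every library, with a summed level between 3087 and 4104 CPM. The 8 NK cell genes summed to 1025 and 1080 CPM at day 0 and to between 407 and 667 CPM at day 7. The exact two-sided permutation p for this list was 0.0476, the smallest that 21 splits can give. More marker lists were tested than are given here, and the p-values of the lists are not adjusted for their number. Most of the NK sum came from Klrb1c and Klrc1, both lower in every day 7 library, while Ncr1 stayed between 0 and 16.2 CPM. Eomes and Fcer1g of the same list were higher in every day 7 library, at up to 29.0 and 22.4 CPM. The CD8 genes Cd8a and Cd8b1 summed to 204 and 177 CPM in day 7 libraries 5 and 6. They summed to between 11.05 and 18.3 CPM in the other day 7 libraries and to 3.61 and 2.29 CPM at day 0. The 9 macrophage and monocyte genes summed to 255 and 147 CPM in day 7 libraries 5 and 6. They summed to between 16.3 and 29.5 CPM in the other day 7 libraries and to 9.53 and 15.8 CPM at day 0. Both sums were thus higher in every day 7 library than in both day 0 libraries (exact permutation p = 0.0952 for each list). The 5 genes of the type 2 innate lymphoid list summed to 971 and 993 CPM at day 0 and to between 726 and 836 CPM at day 7 (exact permutation p = 0.0476). Il7r, Rora and Gata3 made up most of this sum. Il7r and Il17rb were lower in every day 7 library, while Il1rl1 was higher in every day 7 library. Gata3 and Rora had day 7 values both below and above those of day 0. The lower sum thus does not describe all genes of this list. Libraries 5 and 6 thus stood apart from the other day 7 libraries in the CD8, macrophage, NK and T cell lists, the last at 4104 and 4049 CPM against 3226 to 3400 CPM. Cd4 itself was at 909 and 944 CPM in them, at 476 to 593 CPM in the other day 7 libraries and at 382 and 398 CPM at day 0. In bulk RNA, fewer cells making a transcript and less transcript per cell cannot be told apart. The part that other cells had in any value below was not tested.

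**Figure D1:**
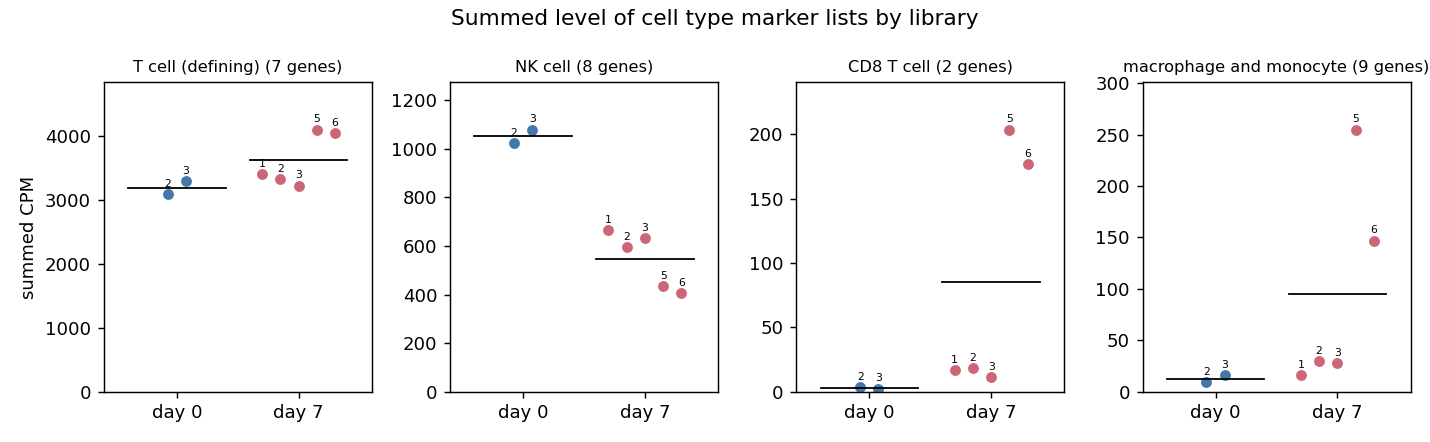
Summed CPM of 4 lists of marker genes (panels) in each library; points are libraries labelled with their digit, and bars are group means. Day 7 libraries 5 and 6 stand above the other day 7 libraries in the CD8 and the macrophage list, and both day 0 libraries (1025 and 1080 CPM) stand above all day 7 libraries in the NK list.

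Compared per length, Ccl5 and Xcl1 were the most abundant of the 10 transcripts. In CPM per kilobase of exon (GENCODE M21 exon lengths, which need not be those the authors counted over), Ccl5 stood at 231 ± 34.1 at day 0 and 283 ± 63.0 at day 7. Xcl1 stood at 338 ± 115 and 192 ± 26.6 on the same scale. Tgfb1 (33.0 ± 2.83 and 39.7 ± 6.36) and Tnf (32.5 ± 1.37 and 38.0 ± 16.9) came next. The order at day 7 continued with Ccl4 (22.8 ± 12.9), Ccl3 (16.9 ± 9.47), Il10 (8.63 ± 7.53), Areg (3.70 ± 3.50), Il21 (2.65 ± 1.99) and Il2 (1.24 ± 1.70). The day 7 ranges of neighbours in this order overlapped throughout, except that every value of Xcl1 lay above every value of Tgfb1.

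**Figure D2:**
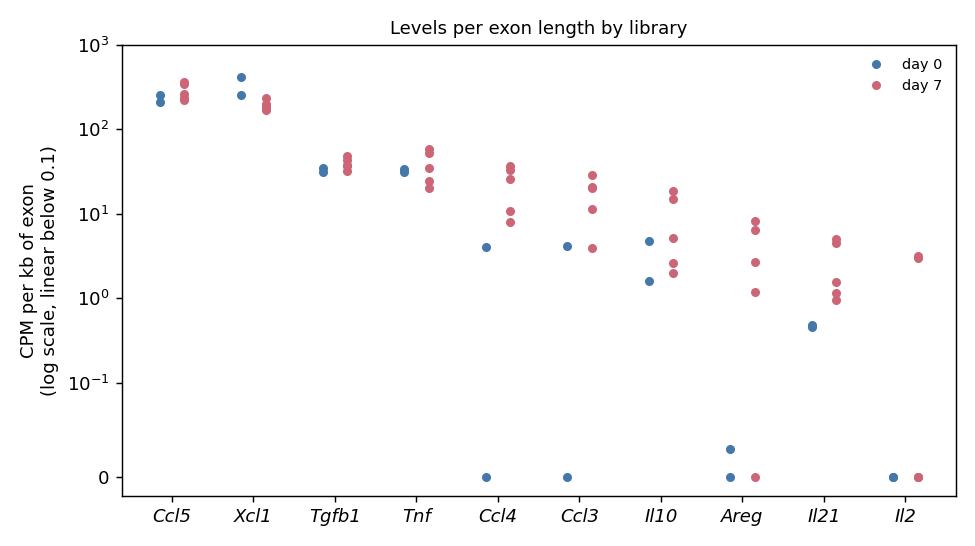
Level of each transcript in every library as CPM per kilobase of exon (vertical axis, logarithmic, linear below 0.1), day 0 in blue and day 7 in red. Ccl5 and Xcl1 lie at 169 or above in every library, and Ccl3, Ccl4, Areg and Il2 each have a library at 0.

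Xcl1 (Entrez 16963), the XCR1 ligand, came nearest to the threshold. It was at 219.5 and 134 CPM in day 0 libraries 2 and 3. At day 7 it was at 88.3, 123, 104, 92.0 and 95.6 CPM in libraries 1, 2, 3, 5 and 6. Every day 7 library was below both day 0 libraries, and the day 0 libraries were farther apart than any of the day 7 libraries. The means were 177 ± 60.4 and 101 ± 13.9 CPM, a log2 change of -0.81 ± 0.21 (edgeR adjusted p = 0.0532). The gene was called lower by DESeq2 (adjusted p = 0.00417), by edgeR with no filter on low counts (adjusted p = 0.0105, where 2.41% of all genes were called), and without day 0 library 3 (log2 change -1.12, edgeR adjusted p = 0.0122, 1.25% of all genes called). Without day 0 library 2 the log2 change was -0.41 (edgeR adjusted p = 0.748). Its level in day 7 libraries 5 and 6 lay within that of the other day 7 libraries, unlike the CD8, macrophage and NK sums. The summed levels of the NK and the type 2 innate lymphoid lists were lower at day 7, as Xcl1 was. Not all their genes moved that way, since Eomes, Fcer1g and Il1rl1 were higher in every day 7 library. The receptor gene Xcr1 stood between 0 and 10.5 CPM.

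Sequences just before the transcript start are shown for Xcl1, the one member with lower values at day 7 in every library, and for 3 members with higher values in some or all day 7 libraries, Ccl3, Il21 and Tnf. They are the 250 bases before the start in RefSeq on GRCm38.p6, the table's own build, since the authors' build is not given in the sources used here. Of the 10 genes 7 were matched (Ccl3, Xcl1, Tnf, Il2, Il21, Areg and Tgfb1; Ccl4, Ccl5 and Il10 were not). Capitals mark the NFAT core GGAAA and a loose NF-kappaB pattern (GGG, any 5 bases, then CC) on either strand, so that TTTCC is GGAAA read on the other strand. All 4 genes lie on the minus strand, and each sequence is written 5′ to 3′ toward the gene.
Xcl1, chr1:164935523-164935772: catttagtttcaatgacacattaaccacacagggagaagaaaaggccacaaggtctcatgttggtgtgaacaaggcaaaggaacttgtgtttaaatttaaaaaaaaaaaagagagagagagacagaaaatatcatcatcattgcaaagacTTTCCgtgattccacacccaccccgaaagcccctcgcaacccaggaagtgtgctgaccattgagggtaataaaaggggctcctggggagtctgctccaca
Ccl3, chr11:83649379-83649628: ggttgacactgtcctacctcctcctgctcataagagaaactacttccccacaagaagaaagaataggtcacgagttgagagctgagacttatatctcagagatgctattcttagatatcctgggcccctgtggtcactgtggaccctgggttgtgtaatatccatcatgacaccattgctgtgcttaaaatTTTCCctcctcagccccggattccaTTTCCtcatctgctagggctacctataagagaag
Il21, chr3:37232637-37232886: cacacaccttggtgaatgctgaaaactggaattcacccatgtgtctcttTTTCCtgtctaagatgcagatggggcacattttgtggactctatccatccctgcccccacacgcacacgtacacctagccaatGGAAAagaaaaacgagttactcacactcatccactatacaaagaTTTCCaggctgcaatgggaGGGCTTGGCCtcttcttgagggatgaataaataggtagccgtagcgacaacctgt
Tnf, chr17:35202008-35202257: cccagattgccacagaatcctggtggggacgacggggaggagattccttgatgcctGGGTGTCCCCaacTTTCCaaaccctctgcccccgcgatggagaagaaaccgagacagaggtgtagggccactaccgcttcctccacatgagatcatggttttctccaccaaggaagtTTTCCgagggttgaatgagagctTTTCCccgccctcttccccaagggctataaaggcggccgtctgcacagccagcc

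The NFAT core was present in 6 of the 7 windows, Tgfb1 being the exception, and in 55.6% of 32851 RefSeq promoters of the same length. It occurred once in Xcl1, 100 bases before the start, and 2 times in Ccl3, at 59 and 34 bases. It occurred 3 times in Il21 and 3 times in Tnf. The NF-kappaB pattern was in 5 of the 7 (not in Xcl1 or Ccl3) and in 45.8% of all promoters. The AP-1 site TGANTCA was in 0 of the 7 and in 6.75% of all promoters. The cyclic AMP response element TGACGTCA occurred in Areg alone among the 7, 61 bases before the start, and in 1.55% of all promoters. A run of GGAAA can lie inside the NF-kappaB pattern, but no matches of different patterns overlapped in these 7 windows. A match is not a measured binding site.

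Ccl3 and Ccl4 encode related inflammatory chemokines (MIP-1 alpha and MIP-1 beta) and lie next to each other on chromosome 11. Ccl3 (Entrez 20302) had 3.16 and 0 CPM at day 0, against 8.72, 15.8, 2.99, 21.8 and 15.6 CPM at day 7. One day 7 library, library 3, was just below day 0 library 2. Ccl4 (Entrez 20303) was at 2.66 and 0 CPM at day 0, and at 21.5, 7.15, 5.29, 24.4 and 16.9 CPM at day 7. All 5 day 7 libraries were above both day 0 libraries. The log2 changes were 3.04 ± 1.45 for Ccl3 (edgeR adjusted p = 0.488) and 3.50 ± 1.40 for Ccl4 (edgeR adjusted p = 0.342). All day 0 counts came from library 2 (76 for Ccl3 and 64 for Ccl4), and library 3 had 0 counts of either gene, below the 0.107 CPM that 3 counts would give there. Set against day 0 library 3 alone, both genes were called higher (edgeR adjusted p of 0.00721 and 9.05e-04, with 1.25% of all genes called). Without that library neither was called (edgeR adjusted p of 0.771 and 0.520).

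The ratio of Ccl4 to Ccl3 differed between libraries. It was 0.842 in day 0 library 2, against 2.46, 0.452, 1.77, 1.12 and 1.08 at day 7. The libraries with the most CD8 and macrophage transcripts, 5 and 6, had ratios close to each other, and the other day 7 libraries did not. In RefSeq (GRCm38.p6) the spans of Ccl3 and Ccl4 overlap. These are spans of whole genes, and whether any exons overlap was not examined. How the authors counted strand and overlaps is unknown, so the split of reads between both genes is uncertain.

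**Figure D3:**
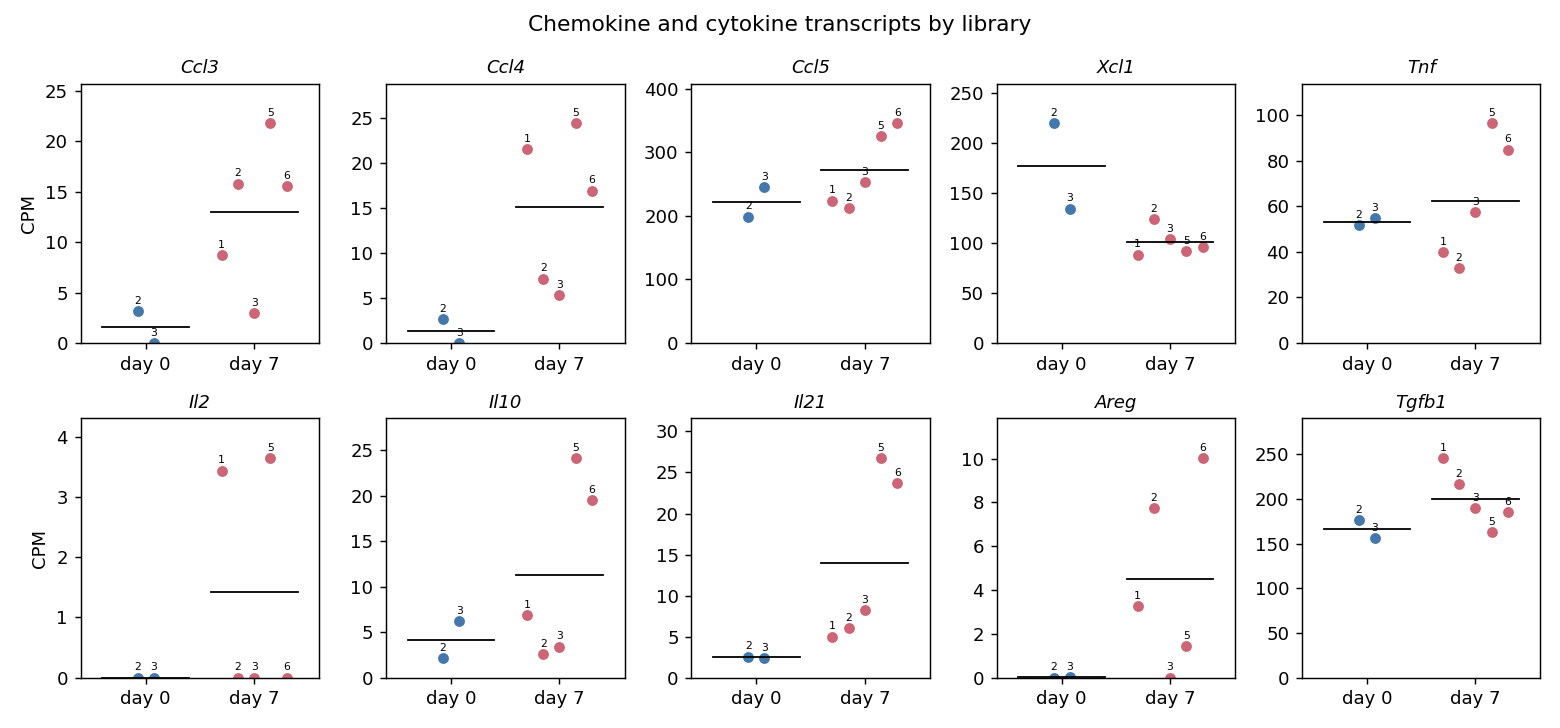
CPM of each of the 10 transcripts (panels, each with its own scale from 0) in every library; points are libraries labelled with their digit and bars are group means. Xcl1 is lower and Ccl4 and Il21 are higher in every day 7 library than in both day 0 libraries, while Il2 is above 0 in day 7 libraries 1 and 5 only.

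Ccl5 (Entrez 20304), which encodes RANTES, a chemokine that resting memory and cytotoxic T cells store as message, varied little. It was at 199 and 245 CPM at day 0, against 224, 212, 253, 326 and 346 CPM at day 7. Libraries 5 and 6 were highest, and the remaining day 7 libraries spread over the same range as day 0. The log2 change was 0.29 ± 0.19 (edgeR adjusted p = 0.636), and 0.03 without day 7 libraries 5 and 6. In RefSeq the gene lies within the span of the non-coding gene Gm32650.

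Tnf (Entrez 21926) encodes the inflammatory cytokine TNF, made as a membrane protein and shed by ADAM17. It was at 51.6 and 54.8 CPM at day 0, against 39.9, 32.8, 57.4, 96.5 and 84.9 CPM at day 7. The day 7 values lay on both sides of day 0, with libraries 1 and 2 below it and libraries 3, 5 and 6 above it. The log2 change was 0.23 ± 0.36 (edgeR adjusted p = 0.973), and its sign turned without libraries 5 and 6 (-0.31, adjusted p = 0.898). The highest day 7 value of Tnf was 2.94 times the lowest, while this ratio had a median of 1.75 over 7113 genes with a day 7 mean of at least 20 CPM. It was 1.63 for Ccl5, 1.40 for Xcl1 and 1.51 for Tgfb1.

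Il21 (Entrez 60505) was at 2.58 and 2.43 CPM at day 0, against 4.99, 6.03, 8.19, 26.8 and 23.7 CPM at day 7. All day 7 libraries were above day 0, and libraries 5 and 6 were highest. The log2 change was 2.48 ± 1.06 (edgeR adjusted p = 0.381, and DESeq2 adjusted p = 0.0341). Without libraries 5 and 6 it was 1.34 (edgeR adjusted p = 0.958). The means were 2.50 ± 0.107 CPM at day 0 and 13.9 ± 10.4 CPM at day 7. In RefSeq the gene lies within the span of Gm36168. The receptor gene Il21r stood between 109 and 195 CPM in all libraries.

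Il2 (Entrez 16183), the T cell growth factor gene, had 0 counts in both day 0 libraries. It had 93 counts (3.44 CPM) in day 7 library 1, 96 counts (3.65 CPM) in library 5, and 0 counts in libraries 2, 3 and 6. Pooled over the groups, the day 7 level of 1.52 CPM was at least 26.4-fold higher than the 0.0576 CPM that 3 counts over both day 0 libraries would give. This bound covers counting error alone and takes every count as a separate molecule. Reads copied by PCR are not, and 1 fragment may count as 2, so the bound may be too high. In 3 of 5 day 7 libraries Il2 was at 0, as at day 0. The test gave an edgeR adjusted p of 0.636. The receptor chain gene Il2ra stood between 134 and 275 CPM in all libraries.

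Il10 (Entrez 16153), an inhibitory cytokine gene, was at 2.12 and 6.24 CPM at day 0, against 6.84, 2.62, 3.41, 24.2 and 19.5 CPM at day 7. Libraries 5 and 6 were far above the rest, and the other day 7 libraries were at the day 0 level. The log2 change was 1.43 ± 1.17 (edgeR adjusted p = 0.760), and 0.02 without libraries 5 and 6. The receptor gene Il10ra stood at 46.9 ± 17.0 and 86.6 ± 16.2 CPM, higher in every day 7 library (edgeR adjusted p = 0.172, and DESeq2 adjusted p = 0.0185).

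Tgfb1 (Entrez 21803), whose product is secreted in a latent form, was at 177 and 156 CPM at day 0. It was at 246, 217, 190.2, 163 and 186 CPM in day 7 libraries 1, 2, 3, 5 and 6. Libraries 1, 2, 3 and 6 were above both day 0 libraries and library 5 lay between them, and libraries 5 and 6 were the lowest of day 7. The log2 change was 0.27 ± 0.18 (edgeR adjusted p = 0.644). Lrrc32, which encodes the GARP protein that docks latent TGF-beta on regulatory T cells, had 3.95 and 0.0713 CPM at day 0 and from 0 to 15.5 CPM at day 7 (edgeR adjusted p = 0.779). Furin, a protease that cleaves the TGF-beta precursor, was at 91.4 ± 3.18 and 103 ± 35.5 CPM (edgeR adjusted p = 0.975). Of 11 tested TGF-beta response genes 0 passed (1 at an unadjusted p below 0.05, against 10.1% of all genes), with a median log2 change of -0.29. DESeq2 called 1 of them lower, where it called 6.62% of all genes.

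Areg (Entrez 11839), which encodes amphiregulin, had 0 counts and 1 count in day 0 libraries 2 and 3. It was at 3.25, 7.74, 0, 1.44 and 10.03 CPM in day 7 libraries 1, 2, 3, 5 and 6. It was detected in 4 of 5 day 7 libraries, with libraries 6 and 2 highest and library 3 at 0. Pooled counts gave a ratio of 228 with an exact 95% binomial interval from 40.7 to 9016, again for counting error only. That interval also takes every count as a separate molecule and leaves out the spread between libraries, so it is too narrow. The test gave an edgeR adjusted p of 0.522 and a DESeq2 adjusted p of 0.0200. Adam17, the sheddase of both amphiregulin and TNF, was at 72.8 ± 10.8 and 93.5 ± 17.2 CPM (edgeR adjusted p = 0.651). Among 10 tested genes of release and activation, 0 passed edgeR's test (1 at an unadjusted p below 0.05, against 10.1% of all genes) and DESeq2 called 0. The median log2 change of these 10 was 0.37.

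Day 7 libraries 5 and 6 together were above libraries 1, 2 and 3 in 4 of the 10 genes (Ccl5, Tnf, Il10 and Il21), as in 14.5% of all genes, and below them in 1 (Tgfb1), as in 12.8% of all genes. These libraries were set apart by their measured values and are not groups of the study, so no test was made. In Il2, Areg, Ccl3, Ccl4 and Xcl1 these libraries were not both above or both below the others, although Ccl3 and Ccl4 were highest in library 5, where the CD8 sum was highest too.

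**Figure D4:**
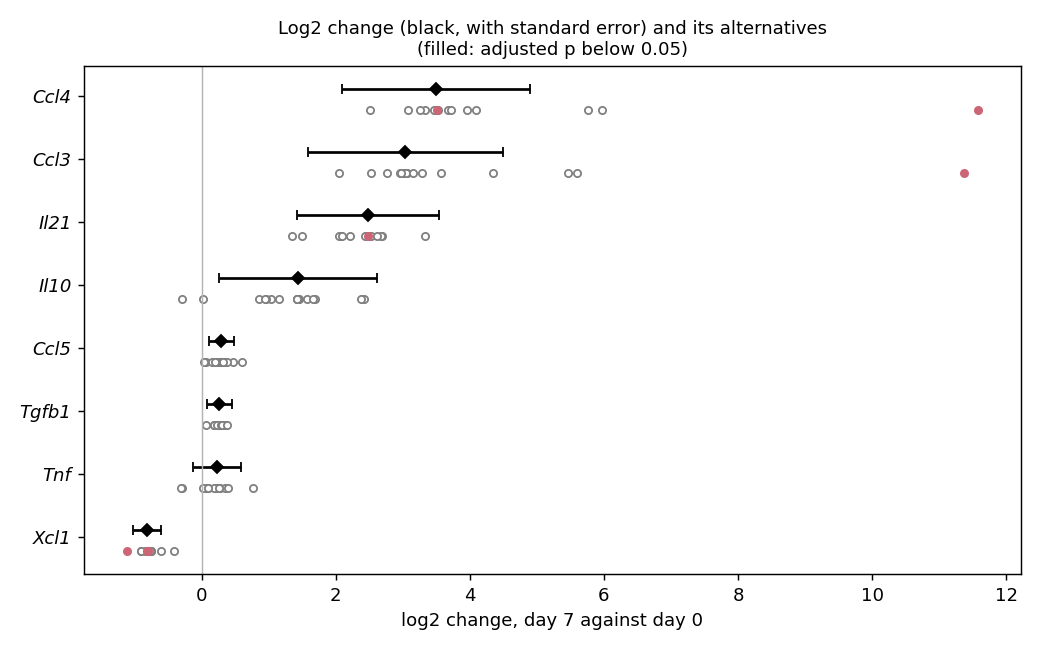
Log2 change from day 0 to day 7 of 8 transcripts (black diamonds, bars are standard errors) and its value under each alternative setting (circles, filled where the adjusted p was below 0.05). Il2 and Areg, with 0 and 1 count at day 0, are left out, and the filled points of Ccl3 and Ccl4 above 11 compare day 7 with 1 day 0 library that had 0 counts of each.

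Over the 7 libraries, the genes with the most similar profile were found among 7036 protein-coding genes with a mean of at least 20 CPM, by Pearson's r of log2(CPM + 1), for the 4 members above the same mean. For Tnf these were Nr4a3 (r = 0.98), Mpnd (r = 0.97) and Vcpkmt (r = 0.97). Nr4a3 encodes a nuclear receptor induced by antigen receptor signals. For Xcl1 they were Ddit3 (r = 0.98), a stress-induced transcription factor gene, Zfp512 (r = 0.97) and Map3k2 (r = 0.97). Ccl5 was nearest to Igf2r (r = 0.99), Pkp3 (r = 0.98) and Trim24 (r = 0.98). Tgfb1 was nearest to Igsf23 (r = 0.99), Ap4s1 (r = 0.96) and Rplp0 (r = 0.96). These pairs are a description over 7 points that share their libraries, and were the highest of many candidates.

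Genes that act on cytokine transcription and on the life of cytokine messages included 4 that passed edgeR's test, where 1.54% of all genes tested did. Of 13 tested genes that act on the decay or stability of such messages 1 rose and 1 fell, and the median log2 change was -0.10. Zc3h12d, a relative of the endonuclease Regnase-1, was at 8.64 and 14.2 CPM at day 0 and at 47.6, 55.4, 39.3, 57.3 and 69.6 CPM at day 7. Every day 7 library was above both day 0 libraries, by a log2 change of 2.24 ± 0.41 (edgeR adjusted p = 0.00232). With limma-voom the gene did not pass (adjusted p = 0.105), nor with sample weights (0.0741) or without day 7 libraries 1, 2 and 3 (edgeR adjusted p = 0.0518). Zfp36l2, an AU-rich element binding protein that promotes decay, fell from 1313 and 1264 CPM to 828, 796, 891, 942 and 868 CPM (log2 change -0.57 ± 0.10, edgeR adjusted p = 0.00212). It did not pass without day 7 libraries 1, 2 and 3 (edgeR adjusted p = 0.0562). Its relative Zfp36, which encodes tristetraprolin, a destabiliser of Tnf messages, was at 706 ± 129 and 430.1 ± 106 CPM. It did not pass edgeR's test (adjusted p = 0.151) or DESeq2's (adjusted p = 0.128). It was called lower by edgeR with no filter (adjusted p = 2.59e-05) and by limma-voom (adjusted p = 0.0415). Without day 7 libraries 5 and 6 it was called lower too (edgeR adjusted p = 1.91e-04). That setting was chosen after the data were seen and leaves out the highest day 7 values of Zfp36, so it adds no support. Zc3h12a, which encodes Regnase-1 itself, was at 24.3 ± 25.6 and 17.9 ± 6.87 CPM (edgeR adjusted p = 0.946).

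Of 26 tested transcription factor genes linked to these cytokines 0 rose and 2 fell, Junb (an AP-1 subunit) and Tbx21 (T-bet), with a median log2 change of 0.07. The number that fell depended on the setting. It was 1 with RLE scaling, 4 with limma-voom, and 8 without day 7 libraries 5 and 6, a setting chosen after the data were seen. Junb fell with a log2 change of -1.14 ± 0.15 (edgeR adjusted p = 6.79e-04). For Tbx21, which fell, the log2 change was -0.60 ± 0.16 and the edgeR adjusted p was 0.0491. It did not pass when any 1 library other than day 7 library 6 was left out, with edgeR adjusted p-values up to 0.515, nor with limma-voom (0.0792), halved counts (0.0513), RLE scaling (0.0506), library sizes alone (0.0649) or a mean of at least 5 CPM required (0.0575). Over all genes, 10.1% had an unadjusted p below 0.05 in edgeR's test and DESeq2 called 6.62%, in either direction. Of 15 tested receptor genes of the 10 ligands 0 passed edgeR's test (2 at an unadjusted p below 0.05), and DESeq2 called 2 higher. The median log2 change of the receptors was 0.05. Of 12 tested TNF response genes 0 passed (2 at an unadjusted p below 0.05, median log2 change -0.27, and DESeq2 called 2 lower). Of 15 tested response genes of IL-2, IL-21 and IL-10 0 passed (1 at an unadjusted p below 0.05, median log2 change 0.08, and DESeq2 called 0).

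Other cytokine genes of T cells were measured beside the 10. Of 24 tested 0 passed edgeR's test and 7 had an unadjusted p below 0.05, as 10.1% of all genes had. DESeq2 called 4 higher and 1 lower, where it called 6.62% of all genes. The median log2 change of the 24 was 0.58, also with the 4 genes that had 0 counts at day 0 set to their bounds. Ifng was at 482.8 and 335 CPM at day 0 and at 125, 192, 133, 264 and 267 CPM at day 7, below day 0 in every library (edgeR adjusted p = 0.276). It was called lower by edgeR with no filter on low counts (adjusted p = 8.38e-07) and by limma-voom (adjusted p = 0.0248), and not by DESeq2 (adjusted p = 0.0957). Without day 7 libraries 5 and 6 it was called lower too (edgeR adjusted p = 3.69e-04). That setting was chosen after the data were seen and leaves out the highest day 7 values of Ifng, so it adds no support. Fasl was at 130 ± 5.50 and 67.8 ± 28.6 CPM (edgeR adjusted p = 0.265, and 0.0144 with no filter). Cd40lg, the helper ligand of B cells and dendritic cells, was at 206 ± 39.5 and 134 ± 18.8 CPM (edgeR adjusted p = 0.128, and DESeq2 adjusted p = 0.0146). Ltb was at 267 ± 6.31 and 274 ± 41.3 CPM, and Csf2, which encodes GM-CSF, at 16.8 ± 18.8 and 13.4 ± 3.49 CPM, with edgeR adjusted p-values of 0.9998 and 0.998. Lta, a relative of Tnf, was at 21.1 and 13.2 CPM at day 0, against 45.97, 19.8, 33.3, 4.14 and 6.96 CPM at day 7 (edgeR adjusted p = 0.998). Its lowest values were in libraries 5 and 6, where Tnf was highest.

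**Figure D5:**
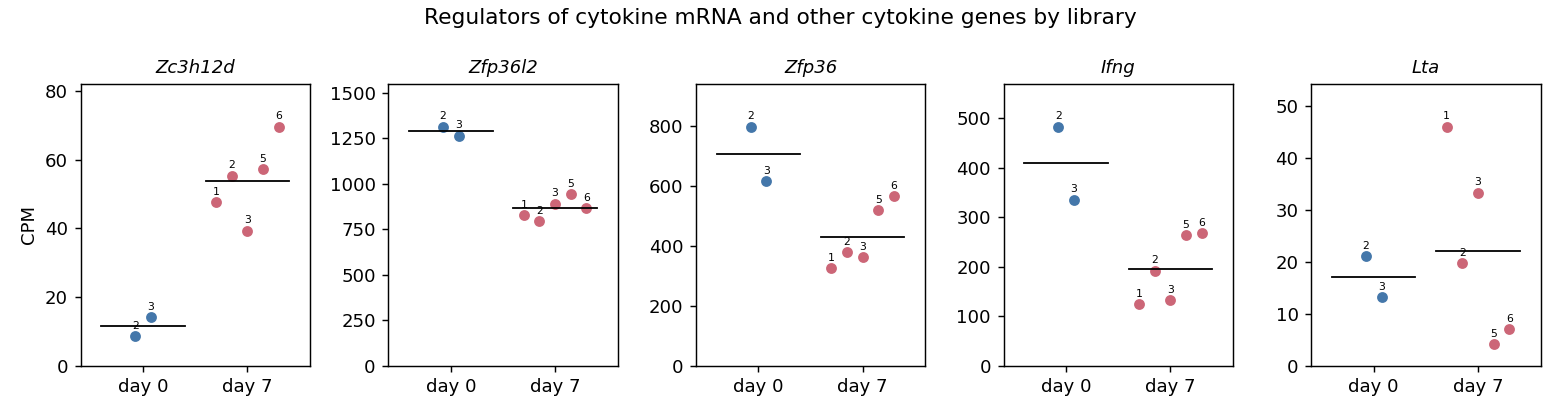
CPM of 3 genes that act on cytokine messages (Zc3h12d, Zfp36l2 and Zfp36) and of the cytokine genes Ifng and Lta in every library; points are libraries labelled with their digit and bars are group means. Zc3h12d is higher and Zfp36l2 lower in every day 7 library than at day 0, and Lta is lowest in day 7 libraries 5 and 6, at 4.14 and 6.96 CPM.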

How the data were processed

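RNA sequencing libraries of CD4 T cells were compared between day 0 (2) and day 7 (5). The authors deposited raw counts per gene, and featureCounts 1.5.0-p3, HISAT2 2.0.5 and CASAVA 1.8 are listed in the submitters' processing notes without roles. The genome build is not given in the sources used here, nor is the annotation or strand setting. Total counts ranged from 21910818 to 28333855. Between 72.4% and 78.1% of counts from 2 to 200 were even, so 1 fragment may count as 2. No 2 libraries of a day agreed within sampling noise (chi-square per degree of freedom at least 77.0).

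Each column was assigned to a day by its name. Counts were filtered (filterByExpr), scaled (TMM) and tested with edgeR 4.0.16 (robust quasi-likelihood, in R 4.3.3), and p-values were adjusted over 12929 genes (Benjamini-Hochberg). The procedure was run on counts simulated from its own fitted model, with changes set only in genes of at least 20 CPM. That does not show how it performs for members below this level. The standard error of a log2 change was its size over the square root of the F statistic. DESeq2 1.42.0 and limma 3.58.1 were alternatives, beside other scalings, filters, halved counts and left-out libraries. Marker sums use total counts. The members and lists were chosen with earlier results of these data known. Named were all members, up to 3 called genes per list and direction, and 11 further genes. Xcr1, Il2ra, Il21r, Il10ra, Ncr1, Klrb1c, Klrc1 and the genes of the closing section were named after their values were seen. So were Eomes, Fcer1g, Il1rl1, Il7r, Il17rb, Gata3 and Rora. One gene is not reported here.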

Additional observations from a re-analysis of the deposited data

How the results depend on the processing

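Of the 10 genes' log2 changes, those of Tnf and Il10 changed sign under an alternative. With a replicate block on the column digit they were -0.29 (Tnf) and -0.29 (Il10), and without day 7 libraries 5 and 6, a setting chosen after the data were seen, Tnf was at -0.31. No label pairs the digits, and same-digit libraries did not deviate together (r of -0.01 and -0.00 across genes). Under that block 0 of the 10 genes were called, and 40 genes in all were called higher and 42 lower. Zc3h12d did not pass under it (edgeR adjusted p = 0.132), and Ifng (0.00817) and Zfp36 (0.0183) were called lower. DESeq2 gave log2 changes of 3.51 (Ccl4), 2.48 (Il21), 7.89 (Areg) and -0.82 (Xcl1), all called, so 3 members higher and 1 lower, with 634 and 192 of all genes. With no filter Xcl1 was called at -0.81 (1 member lower), with 249 genes higher and 126 lower. limma-voom called 31 genes higher and 64 lower, or 46 and 82 with sample weights, against 138 and 61 by edgeR. Without day 7 libraries 5 and 6, 118 genes were higher and 107 lower. With 1 library left out at a time, log2 changes ranged from 2.05 to 11.36 (Ccl3), 2.51 to 11.58 (Ccl4), 2.10 to 2.69 (Il21), 6.79 to 9.80 (Areg), 8.14 to 8.51 (Il2), 0.86 to 2.42 (Il10, highest without day 0 library 3), 0.02 to 0.39 (Tnf), 0.15 to 0.46 (Ccl5), 0.18 to 0.36 (Tgfb1) and -1.12 to -0.41 (Xcl1). Members called ranged from 0 to 2 higher and 0 to 1 lower, and all genes from 87 to 153 higher and 30 to 59 lower. The lone day 0 library is then assumed to vary like day 7. Il2 could not be fitted under the block, without day 7 library 1 or 5, or in the 2 subsets of day 7 libraries, and neither Il2 nor Areg with a mean of at least 5 CPM required. The median of all genes moved to 0.11 with no filter and to 0.18 without either day 0 library, where more genes entered the test. The other causes were not tested. Halving every count keeps the ratio between the days, apart from rounding. The log2 changes of Ccl3 (3.04), Ccl4 (3.50) and Il21 (2.48) were thus bound to stay as they were. Those of Il2 and Areg moved from 8.16 to 7.16 and from 7.60 to 8.83. Il2 and Areg rest on 0 and 1 count at day 0, so the size of their log2 changes is poorly set. With all libraries kept, the alternative settings gave 2.90 to 8.16 for Il2 and 4.12 to 8.83 for Areg.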

Other observations

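Among 11 other chemokine genes tested, 3 that are better known from myeloid cells were highest in day 7 libraries 5 and 6. Ccl6 had 0 counts in the other 5 libraries and was at 20.2 and 3.30 CPM in libraries 5 and 6. Ccl9 was at 10.3 and 4.43 CPM there, at 3.07 CPM in day 7 library 3 and at 0 elsewhere. Cxcl16 was at 7.06 and 6.37 CPM there and at most 0.0427 CPM elsewhere. Others did not follow this order. Cxcl10 was at 14.9 and 4.11 CPM there against 23.2 to 29.7 CPM in the other day 7 libraries, Ccl1 and Ccl24 were at 0 there, and Cxcl2 was at 2.73 and 0.497 CPM there and up to 3.33 CPM elsewhere. Csf1, which encodes the macrophage growth factor M-CSF, was at 54.9 and 46.8 CPM there, between 4.29 and 13.6 CPM for day 7 libraries 1, 2 and 3, and at 2.58 and 3.71 CPM in the day 0 libraries (edgeR adjusted p = 0.168, and 9.75e-04 with no filter on low counts). Libraries 5 and 6 held the macrophage genes Lyz2 (146 and 68.1 CPM) and Csf1r (41.4 and 19.4 CPM). In the other 5 libraries Lyz2 was at most 6.71 CPM and Csf1r at most 7.998 CPM, both scaled by total counts. Csf1r had 0 counts at day 0 and passed edgeR's test (adjusted p = 0.0491). The part of such cells in these values was not tested. Of the 11 chemokine genes 0 passed edgeR's test and 1 had an unadjusted p below 0.05, against 10.1% of all genes. DESeq2 called 2 of the 11 higher, where it called 6.62% of all genes.

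The interleukin 17 genes were also highest in these libraries. Il17a reached 10.1 and 13.9 CPM in libraries 5 and 6 and between 0 and 2.91 CPM in the others. Il17f was at 3.11 and 10.1 CPM there, with 0 counts in the other 5. Il4, the cytokine of type 2 help and of natural killer T cells, had 36.8 and 30.4 CPM at day 0, against 18.1, 27.0, 23.1, 13.4 and 3.93 CPM for day 7 libraries 1, 2, 3, 5 and 6. Every day 7 value of Il4 was below both day 0 values, and the gene did not pass (edgeR adjusted p = 0.593).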
